A study of Mus musculus with 13 samples.

Results

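The 37 genes described here encode enzymes of glycolysis, transporters of glucose and lactate, the oxygen-sensitive subunits of the hypoxia-inducible factor (HIF) with the hydroxylases that act on them, and genes known as targets of HIF. They were taken from a list of gene symbols, and each of the 37 was found among the 55487 genes of the deposited count tables. The libraries come from primary mouse embryonic fibroblasts (MEFs) and from cell lines that arose from such cells by spontaneous immortalization. Wild-type (WT) cells gave 3 primary libraries and 3 immortalized libraries, both from clones 3, 4 and 5. Cells with the Prkd3-/- genotype, a knockout of the gene for protein kinase D3, gave 3 primary libraries, from clones 13, 14 and 15, and 4 immortalized libraries, from lines 13, 13a, 14 and 15. The methods of the study describe WT cells. By them, immortalized lines grew out of colonies that appeared after a senescent culture had been moved to medium with more fetal calf serum. A line can thus descend from few cells. Per the methods of the study, the established lines were then grown with the serum level used for the primary cells. Lines 13 and 13a carry the number of the same primary clone. The methods of the study name high-glucose medium, and the oxygen level of the incubators is not given in the sources used here.

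Glycolysis splits glucose into pyruvate through a chain of cytosolic enzymes. Glucose enters the cell through transporters of the Slc2a family, pyruvate is reduced to lactate by lactate dehydrogenase or passed on to the mitochondrion, and lactate leaves through Slc16a carriers. HIF is a transcription factor made of an oxygen-sensitive subunit, Hif1a or Epas1 (HIF-2 alpha), and a stable partner. In the presence of oxygen the prolyl hydroxylases of the Egln family mark the sensitive subunit for degradation, so HIF is known to be regulated mainly at the level of its protein, which RNA counts do not measure. HIF binds DNA at the core letters ACGTG or GCGTG near genes of glucose uptake, glycolysis, blood vessel growth and matrix modification. Fibroblasts use these genes in wound repair, and proliferating cells in culture are known for high glycolysis even in air.

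The bases just upstream of 4 of these genes are shown because the genes differ both in the HIF core letters they hold and in how their counts moved. The sequences are RefSeq promoters on GRCm38.p6, each 250 bases long, ending at the base before the annotated start and written 5′ to 3′ on the strand of the gene. Capitals mark the letters ACGTG or GCGTG on either strand, where a match on the other strand reads CACGT or CACGC, and CACGTG holds ACGTG on both strands and counts as 2 matches. Vegfa lies at chr17:46032378-46032627 on the minus strand, Hk2 at chr6:82774455-82774704 on the minus strand, Ldha at chr7:46845554-46845803 on the plus strand and Bnip3 at chr7:138909507-138909756 on the minus strand.
Vegfa: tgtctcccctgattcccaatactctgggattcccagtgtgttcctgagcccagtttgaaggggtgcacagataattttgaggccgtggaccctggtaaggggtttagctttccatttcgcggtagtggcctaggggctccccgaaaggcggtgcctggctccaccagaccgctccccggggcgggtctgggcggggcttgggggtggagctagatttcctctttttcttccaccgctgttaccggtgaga
Hk2: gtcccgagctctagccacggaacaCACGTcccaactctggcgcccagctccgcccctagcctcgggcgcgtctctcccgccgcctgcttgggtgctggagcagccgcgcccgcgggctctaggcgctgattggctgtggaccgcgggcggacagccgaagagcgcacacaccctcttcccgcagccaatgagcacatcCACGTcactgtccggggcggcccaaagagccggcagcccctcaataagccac
Ldha: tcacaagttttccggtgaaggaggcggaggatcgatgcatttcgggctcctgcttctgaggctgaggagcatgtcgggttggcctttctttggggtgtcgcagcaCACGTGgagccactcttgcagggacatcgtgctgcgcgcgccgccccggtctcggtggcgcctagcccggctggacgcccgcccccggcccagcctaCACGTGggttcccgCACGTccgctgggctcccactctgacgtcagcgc
Bnip3: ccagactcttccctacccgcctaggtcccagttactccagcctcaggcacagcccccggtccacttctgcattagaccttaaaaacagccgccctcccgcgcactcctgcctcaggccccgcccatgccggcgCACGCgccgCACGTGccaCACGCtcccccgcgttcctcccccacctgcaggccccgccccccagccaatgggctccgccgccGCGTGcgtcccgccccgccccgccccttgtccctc
The Vegfa window held 0 matches, that of Hk2 held 2, and those of Ldha and Bnip3 held 5 each. The Ldha window lies inside the span of the gene in the count tables (46841475 to 46855627), whose annotation has an earlier start. A promoter was listed for 34 of the 37 genes, and Slc2a3, Epas1 and Ndrg1 had none. Of the 34, 25 (73.5%) held at least 1 match, against 38.6% of all 27025 listed promoters and 54.5% of the 12035 promoters of genes tested in the WT comparison. At least 3 matches were found in 8 of them (23.5%), namely Pfkp, Pgam1, Ldha, Hif1a, Bnip3, P4ha1, P4ha2 and Ankrd37, against 6.7% of all promoters and 11.5% of those of tested genes. These matches describe the letters in a short window and are not measured binding sites. Bases farther upstream or within the genes were not searched, so the 0 matches of Vegfa hold for this window only.

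The libraries held between 35273408 and 100441756 counts, so that 3 counts correspond to 0.0277 to 0.0842 CPM. CPM, the usual measure of the share of a library that a gene takes, was computed with library sizes adjusted by TMM over all 13 libraries. Prkd3 was counted at 69.2 to 93.8 CPM in the WT libraries and at 33.6 to 61.0 CPM in the Prkd3-/- libraries, so the genotype is used here as the label gives it. The 3 WT primary libraries were much alike, differing beyond counting noise by a coefficient of variation of 3.59% to 4.81%, pair by pair, against 19.4% to 24.3% among the WT lines, 9.64% to 21.7% among Prkd3-/- primary libraries and 25.3% to 48.2% among Prkd3-/- lines. Each WT primary library also held both Xist, at 43.9 to 55.9 CPM, and the Y-linked gene Ddx3y, at 51.6 to 63.8 CPM, so the counts do not show each to come from a single embryo, as the study describes them, and the spread among the primary libraries may be partly technical. The spread among the WT lines enters the same test. WT lines 3, 4 and 5 held Xist at 170, 157 and 56.2 CPM and Ddx3y at 0.209, 33.2 and 65.3 CPM. The Prkd3-/- libraries held Xist at 0 to 0.156 CPM and Ddx3y at 47.5 to 154 CPM. Genotype and the sex makeup read from these genes thus went together. Their parts in a difference between the genotypes cannot be told apart. The 10 fibroblast markers summed to 30907 to 94971 CPM, with Col1a1 alone at 7789 to 39237 CPM, and none of them was at 0 in a group. Less abundant markers differed widely among lines. In WT lines 3, 4 and 5 Dcn was at 0.661, 153 and 456 CPM, and Lum at 0.0483, 93.5 and 11.4 CPM. WT primary libraries held 124 to 132 CPM of Dcn and 165 to 192 CPM of Lum. Thy1 was at 4.85, 895, 363 and 29.0 CPM in Prkd3-/- lines 13, 13a, 14 and 15, against 453 to 811 CPM in their primary libraries. The 12 macrophage markers, among them Csf1r, Cd68 and C1qa, summed to 928 to 955 CPM in WT primary libraries and to 39.4 to 119 CPM in WT lines. In Prkd3-/- primary libraries the macrophage sum was 113 CPM in clone 13, 1286 CPM in clone 14 and 269 CPM in clone 15, and in the lines it ran from 10.99 to 218 CPM, highest in line 13a. In bulk RNA, fewer cells of a type and less RNA per cell cannot be told apart.

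In WT MEFs, 1 of the 37 genes passed the thresholds of an adjusted p under 0.01 and a |Log2FC| of at least 1 in edgeR's quasi-likelihood test. This gene was Vegfa, the vascular endothelial growth factor, and it was higher in immortalized MEFs. Among all 19836 genes tested, 0.0605% were called higher and 1.76% were called lower, and 0 of the 37 genes were called lower. With an adjusted p under 0.05 and no minimum fold, Hk2 and Vegfa were higher (2 of 37, background 0.696%) and Slc2a3 and Car12 were lower (2 of 37, background 4.57%). An unadjusted p under 0.05 was reached by 12 of the 37 (32.4%), against 19.7% of all genes. With DESeq2, 6 of the 36 genes with an adjusted p passed the same thresholds (Vegfa and Hk2 higher, Slc2a3, Car12, Car9 and Aldoc lower), against 5.85% of all genes. Every WT line lay above every WT primary library for 7 of the 37 (18.9%, background 14%) and below for 6 of the 37 (16.2%, background 17.3%). The calls depended on the treatment of the libraries. With the clone as a block in a paired fit, 0 of the 37 and 0 of all genes passed the first thresholds, and of the 4 genes under 0.05 only Vegfa stayed there (adjusted p = 0.0443), beside 0.0639 for Hk2, 0.0767 for Slc2a3 and 0.116 for Car12. The median Log2FC of the 37 genes was 0.10 beside 0.04 over all genes tested, and it was -0.12 without line 5.

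In Prkd3-/- MEFs, edgeR called 0 of the 37 genes under either rule, and 0 of all 20298 genes tested, which puts both backgrounds at 0%. An unadjusted p under 0.05 was reached by 8 of the 37 (21.6%), against 6.56% of all genes. DESeq2 called Adm and Slc16a3 lower (2 of 37, background 0.800%). The 4 lines lay above the 3 primary libraries for Egln1 and Ndrg1 (2 of 37, background 4.19%) and below them for Slc2a1, Slc16a3, Pdk1, Bnip3, Adm and Gys1 (6 of 37 or 16.2%, background 5.26%). The median Log2FC of the 37 genes was -0.25, beside 0.07 over all genes, and 25 of the 37 had a negative value, against 13 of the 37 in WT MEFs. The test of the difference between the genotypes, an interaction over all 13 libraries, called 0 of the 37 genes at an adjusted p under 0.05, and 0% of all 21197 genes tested. Its unadjusted p was under 0.05 for 7 of the 37 (18.9%, background 3.97%), namely Slc2a3, Pfkl, Vegfa, Bnip3, P4ha1, Adm and Gys1. DESeq2 called 1 of the 37, Gys1, in this interaction (background 0.180%). A difference between the genotypes was therefore not shown for any of the 37 genes by the edgeR test.

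**Figure D1:**
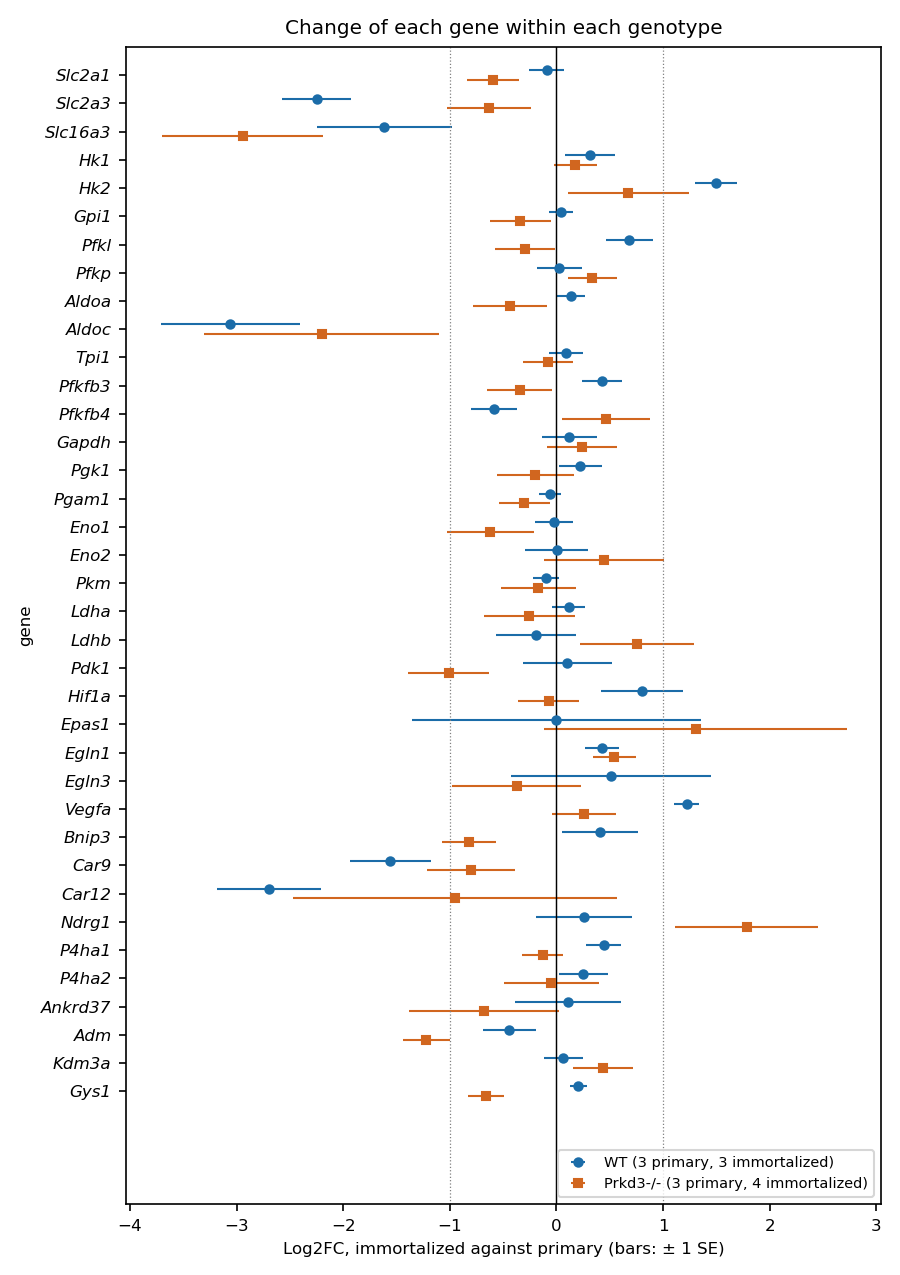
Log2FC of immortalized against primary MEFs (horizontal axis) for each of the 37 genes (vertical axis), with bars of 1 standard error, for WT (circles) and Prkd3-/- (squares). Dotted lines mark a Log2FC of -1 and 1. Vegfa in WT had a short bar at 1.22, whereas Epas1 had bars of 1.35 and 1.42.

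Among the transporters, Slc2a3 and Slc16a3 had the largest differences, with lower means in the immortalized MEFs of both genotypes. Slc2a3 encodes GLUT3, a glucose transporter of high affinity best known from neurons and leukocytes. Its level was 11.7, 11.1 and 10.7 CPM in the WT primary libraries of clones 3, 4 and 5, and 1.97, 1.56 and 3.49 CPM in the lines of the same numbers. The groups did not overlap, with a Log2FC of -2.25 (SE 0.32, adjusted p = 0.0176), and this adjusted p ran from 0.00154 without line 5 to 0.0901 without primary clone 4. Slc2a3 in Prkd3-/- MEFs was at 9.67, 5.92 and 6.96 CPM in primary clones 13, 14 and 15, and at 6.36, 6.85, 3.75 and 2.62 CPM in lines 13, 13a, 14 and 15. These groups overlapped (Log2FC -0.63, SE 0.39, adjusted p = 0.835), and the interaction had an unadjusted p of 0.0111 with an adjusted p of 0.999983. Slc16a3 encodes MCT4, the carrier that exports lactate from cells with strong glycolysis. It stood at 21.9, 23.0 and 22.4 CPM in WT primary MEFs and at 10.9, 1.74 and 9.35 CPM in lines 3, 4 and 5 (Log2FC -1.61, SE 0.63, adjusted p = 0.238). Slc16a3 in Prkd3-/- MEFs stood at 12.3, 29.7 and 13.7 CPM in primary clones 13, 14 and 15, and at 1.68, 5.54, 1.97 and 0.526 CPM in lines 13, 13a, 14 and 15 (Log2FC -2.94, SE 0.75, adjusted p = 0.514). Every line of either genotype thus lay below every primary library of its own genotype. Of the exon bases of Slc16a3, 5.75% are shared with Csnk1d, which had 1360% of the counts of Slc16a3. Slc2a1, which encodes GLUT1, the widespread glucose transporter of dividing cells, was at 83.9 to 89.9 CPM in WT primary libraries and at 62.3 to 94.3 CPM in WT lines. Prkd3-/- MEFs held Slc2a1 at 99.0 to 129 CPM in primary libraries and 53.1 to 93.9 CPM in the lines (Log2FC -0.60, SE 0.24, adjusted p = 0.737), which did not overlap.

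The levels of Slc2a3 and Slc16a3 can be set beside the macrophage markers, since leukocytes are known to express both genes. Slc16a3 was highest in primary clone 14 among the Prkd3-/- libraries, the library with the macrophage sum of 1286 CPM, and among the Prkd3-/- lines it was highest in line 13a, whose sum of 218 CPM was the highest of the lines. Hk3, a hexokinase known from blood cells and not among the 37, was at 18.6 to 24.02 CPM in WT primary libraries, at 0.220 to 1.08 CPM in WT lines, and at 1.91, 25.03 and 5.22 CPM in Prkd3-/- primary clones 13, 14 and 15. Slc2a3 did not share this order in the Prkd3-/- primary libraries, where it was lowest in clone 14. Nor did Slc16a3 follow the macrophage sum across states. It was at 12.3 CPM in primary clone 13, with a sum of 113 CPM, and at 5.54 CPM in line 13a. The part of macrophage RNA in these differences was not tested.

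**Figure D2:**
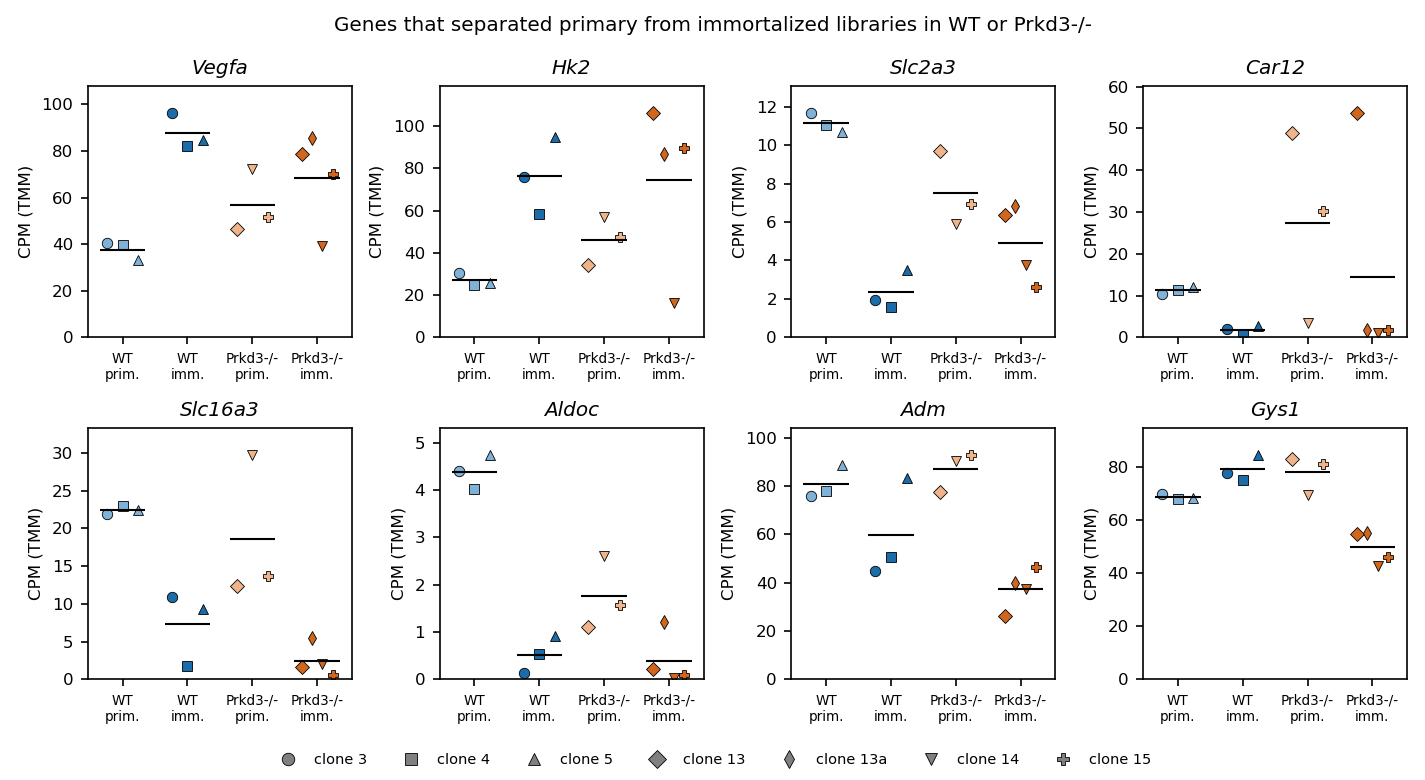
CPM (vertical axis, TMM-scaled, from 0) of 8 genes in the 4 groups, with 1 symbol per library shaped by clone and a line at the group mean. The WT groups did not overlap for Vegfa, Hk2, Slc2a3, Car12, Slc16a3, Aldoc and Gys1, and the Prkd3-/- groups did not overlap for Slc16a3, Adm and Gys1.

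Of the 8 genes of upper glycolysis, Hk2 had the highest and Aldoc the lowest Log2FC in WT MEFs. Hk2 encodes hexokinase 2, the inducible hexokinase of muscle and tumor cells that traps glucose as glucose 6-phosphate. It was at 30.5, 25.01 and 25.8 CPM in the WT primary libraries and at 76.0, 58.6 and 95.0 CPM in lines 3, 4 and 5. Thus the lowest line was well above the highest primary library, with a Log2FC of 1.498 (SE 0.20, adjusted p = 0.0133). The adjusted p ran from 0.00832 without line 4 to 0.0903 without primary clone 4. For Hk2 the Prkd3-/- primary libraries held 34.1, 57.1 and 47.5 CPM, and lines 13, 13a, 14 and 15 held 106, 86.8, 16.2 and 89.4 CPM. Lines 13, 13a and 15 exceeded every primary library, whereas line 14 lay below all of them (Log2FC 0.67, SE 0.57, adjusted p = 0.860). Hk1, the constitutive hexokinase, was at 144 to 147 CPM in WT primary libraries and at 124, 237 and 183 CPM in lines 3, 4 and 5, and its groups overlapped in both genotypes (Log2FC 0.32 with SE 0.23 and 0.18 with SE 0.20).

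Pfkl encodes the liver form of phosphofructokinase, the enzyme of the committed step. It was at 82.8, 78.9 and 77.0 CPM in WT primary MEFs and at 104, 105 and 174 CPM in lines 3, 4 and 5, without overlap (Log2FC 0.68, SE 0.22, adjusted p = 0.171). In the Prkd3-/- lines Pfkl was at 135 CPM in line 13 and at 63.8 to 70.7 CPM in the others, on either side of the 98.4 to 108 CPM of the primary libraries. Pfkp, the platelet form, differed by a Log2FC of 0.03 (SE 0.21) in WT and 0.34 (SE 0.23) in Prkd3-/- MEFs. Aldoc encodes aldolase C, the brain form of the enzyme that splits fructose 1,6-bisphosphate. Its level was 4.40, 4.02 and 4.74 CPM in WT primary MEFs and 0.129, 0.525 and 0.918 CPM in lines 3, 4 and 5 (Log2FC -3.06, SE 0.65, adjusted p = 0.0612). Aldoc in Prkd3-/- MEFs was at 1.11, 2.61 and 1.57 CPM in the primary libraries and at 0.210, 1.21, 0.0313 and 0.0810 CPM in lines 13, 13a, 14 and 15, where the value of line 14 is under that of 3 counts (0.0469 CPM). Aldoc, like Slc16a3, was highest in primary clone 14 and line 13a among Prkd3-/- libraries of each state, which also held the highest macrophage sums. Primary clone 14 was high for most of the genes, with 27 of the 37 above the primary mean, against 10365 of all 20298 genes tested. The part of macrophage RNA in the Aldoc levels was not tested. Aldoa, the main aldolase, was at 613 to 642 CPM in WT primary MEFs and 632 to 785 CPM in the lines. Gpi1 and Tpi1, the glucose phosphate and triose phosphate isomerases, had Log2FC values of 0.04 (SE 0.11) and 0.09 (SE 0.16) in WT and of -0.34 (SE 0.29) and -0.08 (SE 0.24) in Prkd3-/- MEFs.

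The enzymes Pfkfb3 and Pfkfb4 make and break fructose 2,6-bisphosphate, the activator of phosphofructokinase. Their WT groups did not overlap and differed in opposite directions, with Pfkfb3 at 16.0 to 18.2 CPM in primary libraries and at 18.3, 20.9 and 28.9 CPM in the lines (Log2FC 0.43, SE 0.19, adjusted p = 0.283), and Pfkfb4 at 8.57 to 8.87 CPM and at 7.69, 4.71 and 5.03 CPM (Log2FC -0.59, SE 0.21, adjusted p = 0.21). The Prkd3-/- groups of both genes overlapped, with Log2FC values of -0.35 (SE 0.30) and 0.47 (SE 0.41). The adjusted p-values thus passed no threshold for either gene.

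None of the 6 genes of lower glycolysis separated the states in either genotype. In WT MEFs their Log2FC values lay between -0.10 for Pkm and 0.22 for Pgk1, with adjusted p-values from 0.600 to 0.999. The Prkd3-/- values lay between -0.62 for Eno1 and 0.45 for Eno2, with adjusted p-values from 0.843 to 0.940. Pkm, the pyruvate kinase of most tissues outside the liver, was the most counted of the 37 genes at 996 to 1076 CPM in WT primary libraries and 931 to 1013 CPM in WT lines. In the Prkd3-/- lines it ranged from 701 CPM in line 14 to 2100 CPM in line 13, around the 1242 to 1591 CPM of the primary libraries. The counts of several of these genes are uncertain, since read pairs that map to several places were not requested in the counting command of the WT table and near copies of these genes exist. In the first listed transcript of each gene (GENCODE M21), the share of 50-base windows that also occur in another gene's transcripts was 90.4% for Gapdh, 68.0% for Pgk1, 58.1% for Eno1, 41.5% for Pgam1 and 34.4% for Pkm. Gapdh, normally among the most abundant messages of a cell, stood at 4.36 to 10.4 CPM in all libraries, so its values rest on few of its bases. Eno1b, the retrogene that shares most windows with Eno1, was at 143 to 156 CPM in WT primary libraries and ranged from 18.9 CPM in Prkd3-/- line 14 to 310 CPM in line 13. Sums over Eno1 and Eno1b were not formed, and Eno1 is uncertain for this reason. Eno2, the neuronal enolase, shared no such windows and had Log2FC values of 0.00 (SE 0.30) and 0.45 (SE 0.56).

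Lactate dehydrogenase is a tetramer of A and B chains. Ldha, whose chain favors the making of lactate, was at 460, 469 and 471 CPM in WT primary MEFs and at 462, 445 and 608 CPM in lines 3, 4 and 5 (Log2FC 0.11, SE 0.15, adjusted p = 0.735). Ldha in Prkd3-/- MEFs was at 601, 653 and 679 CPM in primary clones 13, 14 and 15, and at 1058, 460, 282 and 392 CPM in lines 13, 13a, 14 and 15 (Log2FC -0.25, SE 0.43, adjusted p = 0.922). Line 13 lay above and the other 3 lines lay below every primary library. Ldhb, whose chain favors the use of lactate, ran the other way among these lines, at 16.97, 43.4, 99.96 and 51.1 CPM against 27.7 to 37.8 CPM in the primary libraries (Log2FC 0.76, SE 0.54, adjusted p = 0.843). Of the windows of Ldha and Ldhb, 17.1% and 27.0% are shared with other genes. Pdk1 encodes a kinase that shuts off pyruvate dehydrogenase and keeps pyruvate from the mitochondrion. It was at 22.8 to 25.6 CPM in WT primary MEFs and at 14.9, 19.2 and 44.7 CPM in lines 3, 4 and 5. Pdk1 in Prkd3-/- MEFs stood at 23.1, 29.8 and 18.7 CPM in the primary libraries and at 7.90, 14.3, 18.1 and 7.27 CPM in the lines, which did not overlap (Log2FC -1.01, SE 0.38, adjusted p = 0.710).

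The relative level of related genes was compared per length, as RPKM from the CPM values and the gene lengths in the count tables. The share of Hk2 in the sum of Hk1 and Hk2 was 21.0% ± 1.76 (SD, n = 3) in WT primary MEFs and 38.5% ± 10.9 (n = 3) in WT lines. The Prkd3-/- share of Hk2 was 32.7% ± 9.64 (n = 3) and 38.12% ± 17.96 (n = 4), with 12.1% in line 14 and 53.4% in line 13. The share of Slc2a3 in Slc2a1 and Slc2a3 was 5.87% ± 0.441 in WT primary MEFs and 1.37% ± 0.478 in WT lines, against 3.16% ± 1.178 and 2.91% ± 0.492 in Prkd3-/- MEFs. Ldhb made up 14.2% ± 0.715 of Ldha and Ldhb in WT primary MEFs and 11.3% ± 3.68 in WT lines, whereas in the Prkd3-/- lines its share ran from 3.27% in line 13 to 42.7% in line 14. The WT groups of the Hk2, Slc2a3 and Aldoc shares did not overlap, and the exact 2-sided permutation test gave p = 0.1 for each, the smallest p that 3 against 3 allows. Over 16 such tests of 8 shares the smallest adjusted p was 0.32. With so few libraries no share could have reached an adjusted p under 0.05, so these tests cannot decide whether a share differed. In Prkd3-/- MEFs, where the smallest possible p of the exact permutation test is 0.0286, the smallest found was 0.0571, for Pfkp in Pfkl and Pfkp (17.8% ± 1.45 in primary MEFs, 25.9% ± 7.33 in the lines).

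**Figure D3:**
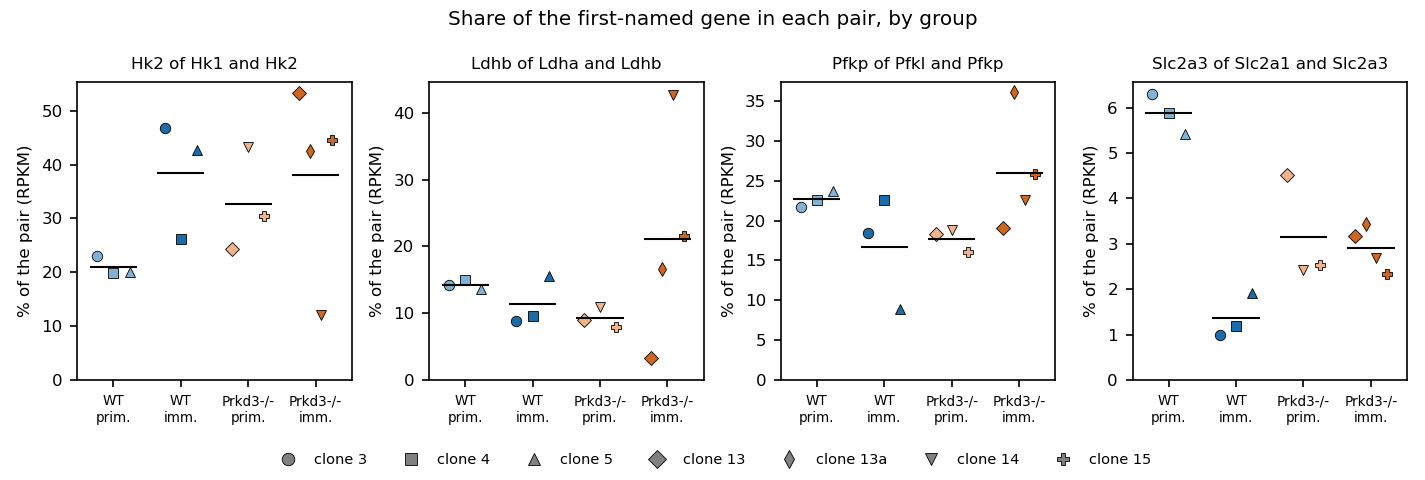
Share of the first-named gene in the summed RPKM of a pair (vertical axis, percent, from 0) in the 4 groups, with 1 symbol per library shaped by clone and a line at the group mean. The share of Hk2 was 12.1% and that of Ldhb 42.7% in Prkd3-/- line 14, the lowest and the highest of all libraries in these panels.

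The genes of the oxygen-sensing group varied more among lines than between states. Hif1a was at 243, 241 and 223 CPM in WT primary MEFs and at 207, 404 and 622 CPM in lines 3, 4 and 5 (Log2FC 0.80, SE 0.39, adjusted p = 0.327), so the groups overlapped through line 3. Hif1a in Prkd3-/- MEFs was at 228 to 375 CPM in primary libraries and at 212 to 361 CPM in lines. Epas1, the HIF subunit known from endothelial cells and from other specialized cells, was at 34.0, 31.6 and 28.5 CPM in WT primary MEFs and at 2.01, 3.61 and 88.3 CPM in lines 3, 4 and 5. WT lines 3 and 4 thus lay below and line 5 lay above every primary library, and without line 5 the Log2FC was -3.48 (SE 0.31, adjusted p = 0.00484) in place of 0.00 (SE 1.35). Among Prkd3-/- libraries Epas1 was at 7.34, 29.0 and 10.1 CPM in primary clones 13, 14 and 15 and at 3.59, 31.9, 117 and 0.985 CPM in lines 13, 13a, 14 and 15, a 118-fold range among the lines. The 8 endothelial markers summed to 0.677 to 2.10 CPM in the WT lines, and to 1.72, 13.7, 17.7 and 13.5 CPM in Prkd3-/- lines 13, 13a, 14 and 15. Single genes gave most of these sums, with Tek at 13.3 CPM in line 14 and Kdr at 12.3 CPM in line 15. The part of endothelial cells in the Epas1 levels was not tested. Egln1, which encodes PHD2, the main prolyl hydroxylase of HIF, was at 53.6 to 55.6 CPM in WT primary MEFs and at 56.2, 81.2 and 82.4 CPM in WT lines (Log2FC 0.43, SE 0.16, adjusted p = 0.221). Egln1 in Prkd3-/- MEFs was at 54.8 to 60.5 CPM in primary libraries and at 109, 64.5, 82.3 and 82.9 CPM in the lines (Log2FC 0.54, SE 0.20, adjusted p = 0.709). All 7 lines thus exceeded all primary libraries of their genotype for Egln1, without passing the test in either. Egln3, the hydroxylase gene that HIF itself is known to induce, was at 4.73 to 4.97 CPM in WT primary MEFs and at 0.967, 3.32 and 16.5 CPM in lines 3, 4 and 5. Among the Prkd3-/- libraries it was highest in primary clone 14, at 11.1 CPM.

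**Figure D4:**
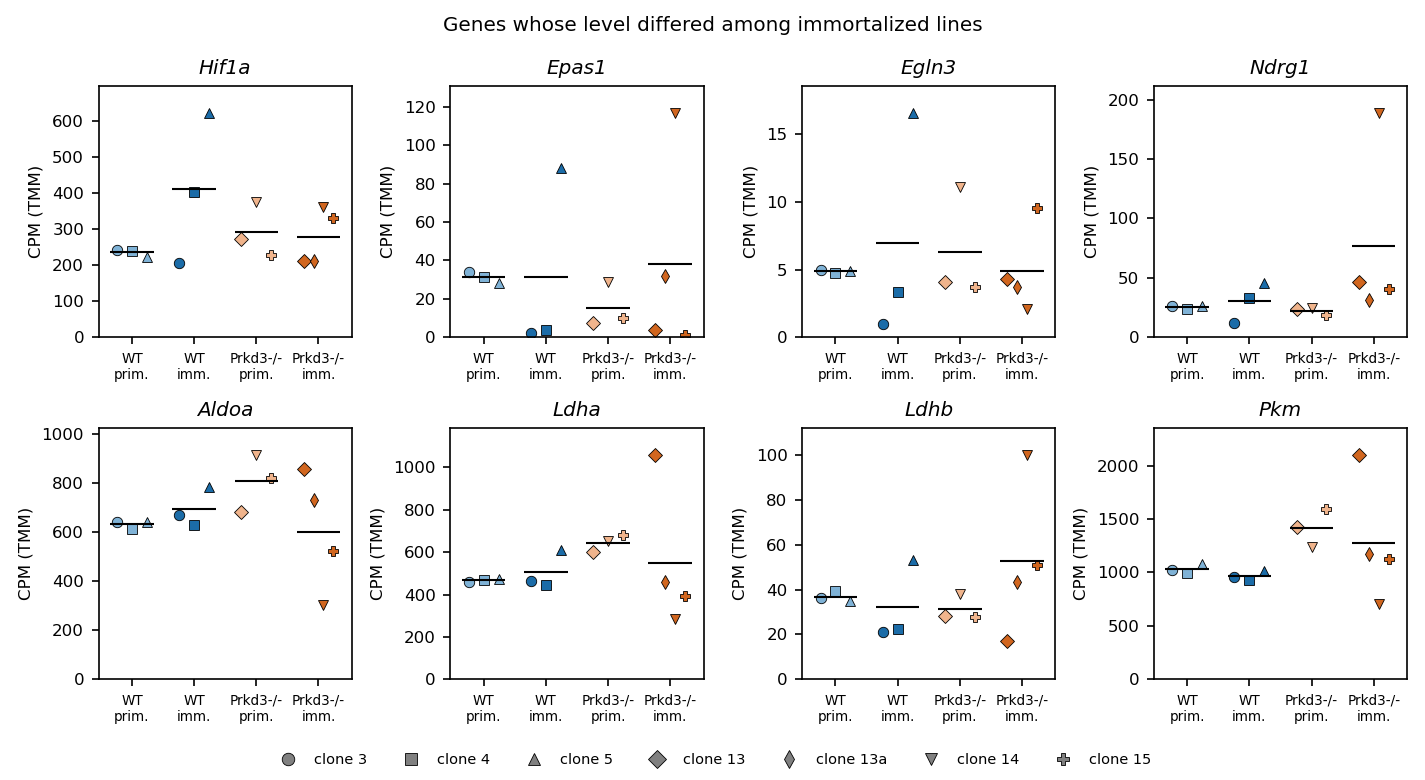
CPM (vertical axis, TMM-scaled, from 0) of 8 genes in the 4 groups, with 1 symbol per library shaped by clone and a line at the group mean. WT line 5 was high for Hif1a, Epas1 and Egln3, Prkd3-/- line 14 was high for Epas1, Ndrg1 and Ldhb and low for Aldoa, Ldha and Pkm, and Prkd3-/- line 13 was high for Ldha and Pkm.

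The 10 known targets of HIF outside glycolysis did not move as a block. Vegfa (ENSMUSG00000023951, chr17:46016993-46032369, minus strand) was at 40.4, 39.4 and 33.1 CPM in WT primary MEFs and at 96.3, 82.3 and 84.8 CPM in lines 3, 4 and 5. The mean rose from 37.6 ± 3.94 to 87.8 ± 7.48 CPM (SD, n = 3), a Log2FC of 1.22 (SE 0.12, adjusted p = 0.00472) and a 2.33-fold increase. Its call was lost with any WT primary library or line 4 left out, with adjusted p-values up to 0.0412, while its Log2FC stayed between 1.14 and 1.27. Vegfa in Prkd3-/- MEFs was at 46.4, 72.1 and 51.6 CPM in the primary libraries and at 78.8, 85.7, 39.2 and 70.3 CPM in lines 13, 13a, 14 and 15 (Log2FC 0.26, SE 0.30, adjusted p = 0.888). Line 14 was below every primary library of that genotype, and the interaction for Vegfa was -0.95 (SE 0.36, unadjusted p = 0.0213, adjusted p = 0.999983).

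Car9 and Car12 encode carbonic anhydrases of the cell surface that handle the acid of glycolytic cells. Car12 was at 10.4, 11.4 and 12.0 CPM in WT primary MEFs and at 1.89, 0.677 and 2.65 CPM in the lines (Log2FC -2.70, SE 0.49, adjusted p = 0.0368). With a library left out the adjusted p ran from 0.00824 without line 4 to 0.151 without primary clone 5. Car12 in Prkd3-/- MEFs was at 48.9, 3.33 and 30.2 CPM in primary clones 13, 14 and 15, and at 53.7, 1.67, 0.938 and 1.69 CPM in lines 13, 13a, 14 and 15. The high value of line 13 thus lay near that of primary clone 13, and the low value of line 14 stood beside the lowest primary library, clone 14, but lines 13a and 15 did not share the level of their clones. Of the 8 epithelial markers, Krt19 alone gave nearly the whole sum in line 13 (129 of 130 CPM), primary clone 13 (42.8 of 44.5 CPM) and primary clone 15 (59.2 of 62.0 CPM). Krt19 was at 7.17 CPM in primary clone 14 and at 12.8, 2.38 and 1.88 CPM in lines 13a, 14 and 15. Cdh1 was at 0 and Epcam at 0.0382 CPM in line 13. Cdh1 was highest in line 13a, at 3.71 CPM, where Car12 was low. The part of epithelial cells in the Car12 levels was not tested. Car9 was under 2 CPM in every library, at 1.11 to 1.61 CPM in WT primary MEFs and 0.336 to 0.709 CPM in the lines (Log2FC -1.56, SE 0.38, adjusted p = 0.0883), and 9.29% of its exon bases are shared with another gene.

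Adm encodes adrenomedullin, a peptide that widens blood vessels. Among the Prkd3-/- results Adm had the smallest adjusted p of the 37 genes, 0.296, with 77.5, 90.2 and 92.9 CPM in primary clones 13, 14 and 15 against 26.4, 39.96, 37.4 and 46.4 CPM in lines 13, 13a, 14 and 15 (Log2FC -1.22, SE 0.22). DESeq2 gave an adjusted p of 0.00269 for this gene. In WT MEFs lines 3 and 4 were at 45.0 and 50.5 CPM and line 5 at 83.5 CPM, against 76.0 to 88.7 CPM in the primary libraries (Log2FC -0.44, SE 0.25, adjusted p = 0.398). Bnip3, a mitochondrial protein that promotes mitophagy, was at 18.1 to 19.8 CPM in WT primary MEFs and at 15.2, 20.6 and 39.9 CPM in the lines. Bnip3 in Prkd3-/- MEFs was at 22.8 to 34.8 CPM in primary libraries and at 11.2 to 18.3 CPM in the lines, without overlap (Log2FC -0.82, SE 0.25, adjusted p = 0.631), while 22.25% of its exon bases are shared with Gm45507. In the WT table a read pair on shared bases was counted for both genes, and the counting options of the Prkd3-/- table are not given in the sources used here. Ndrg1, a stress-induced gene of differentiation, was at 23.9 to 26.4 CPM in WT primary MEFs and 12.2, 33.4 and 45.8 CPM in lines. Every Prkd3-/- line exceeded the primary libraries for Ndrg1, at 46.9, 31.6, 189 and 41.0 CPM against 18.9 to 24.5 CPM (Log2FC 1.78, SE 0.67, adjusted p = 0.710).

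P4ha1 and P4ha2 encode the catalytic subunits of the prolyl hydroxylase of collagen. P4ha1 was at 226, 225 and 209 CPM in WT primary MEFs and 244, 363 and 289 CPM in the lines, without overlap (Log2FC 0.44, SE 0.17, adjusted p = 0.219), and its Log2FC in Prkd3-/- MEFs was -0.13 (SE 0.19). P4ha2 was at 82.9 to 91.0 CPM in WT primary MEFs with 143 CPM in line 5, and ranged from 28.9 CPM in line 15 to 121 CPM in line 14 among the Prkd3-/- lines. Kdm3a, a histone demethylase, had Log2FC values of 0.07 (SE 0.18) and 0.44 (SE 0.28), and Ankrd37, at 0.235 to 2.54 CPM in all libraries, of 0.11 (SE 0.49) and -0.68 (SE 0.70). Of the exon bases of Ankrd37, 26.38% are shared with other genes.

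Gys1 encodes muscle glycogen synthase, which stores glucose as glycogen, and it had the smallest interaction p of the 37 genes. It was at 69.8, 68.1 and 68.3 CPM in WT primary MEFs and slightly higher, at 77.8, 75.2 and 84.6 CPM, in lines 3, 4 and 5 (Log2FC 0.20, SE 0.08, adjusted p = 0.238). Gys1 in Prkd3-/- MEFs was at 83.1, 69.7 and 81.3 CPM in primary clones 13, 14 and 15, and at 54.9, 55.2, 42.7 and 46.2 CPM in lines 13, 13a, 14 and 15 (Log2FC -0.66, SE 0.17, adjusted p = 0.514). Neither pair of groups overlapped, and the directions were opposite. The interaction was -0.85 (SE 0.19) with an unadjusted p of 0.000684 and an adjusted p of 0.999983 in edgeR, and an adjusted p of 0.0111 in DESeq2. Of the exon bases of Gys1, 6.47% are shared with Ruvbl2.

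Set beside each other, the lines differed by which of the 37 genes were high, as the heatmap of log2 ratios to the primary mean shows. WT line 5 had 28 of the 37 genes above the primary mean of its genotype, with a median log2 ratio of 0.38, against 13 and 15 of the 37 and medians of -0.17 and -0.15 in lines 3 and 4. The medians over all genes tested were between -0.01 and 0.00 in these 3 lines. Its oxygen-sensing genes had a median of 1.45 and its 16 genes of glycolytic enzymes and lactate dehydrogenase a median of 0.34. Line 5 also had the lowest sum of the 10 proliferation markers, at 221 CPM against 498 and 721 CPM in lines 4 and 3 and 562 to 636 CPM in the WT primary libraries.

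Among the Prkd3-/- lines, line 14 had 14 of the 16 enzyme genes below the primary mean, with a median log2 ratio of -0.91, and 10 of the 16 were lowest in it of all 7 lines when each was set against its own primary mean. The exceptions were Hk1 and Ldhb. Line 13 had 12 of the 16 above the primary mean, with a median of 0.32, and lines 13a and 15 had medians of -0.18 and -0.24. The median over all genes tested was between -0.02 and 0.02 in these 4 lines. The proliferation markers summed to 2262 CPM in line 13, 534 CPM in line 13a, 595 CPM in line 14 and 1120 CPM in line 15, against 439 to 974 CPM in the primary libraries, so line 13 was highest in both measures, and the part of growth rate in the enzyme levels was not tested. Lines 13 and 13a, which share a clone number, were not alike, with 1058 and 460 CPM for Ldha and 53.7 and 1.67 CPM for Car12. Over the 37 genes the median log2 range among lines was 0.81 in WT and 1.31 in Prkd3-/- MEFs, beside 0.63 and 1.23 over all genes tested, and among primary libraries it was 0.13 and 0.54. The mean log2 CPM of the 37 genes was 4.73, 4.79 and 5.51 in WT lines 3, 4 and 5 against 5.24 to 5.29 in WT primary libraries, and 5.13, 5.09, 4.72 and 4.75 in Prkd3-/- lines 13, 13a, 14 and 15 against 5.25 to 5.49 in Prkd3-/- primary libraries.

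**Figure D5:**
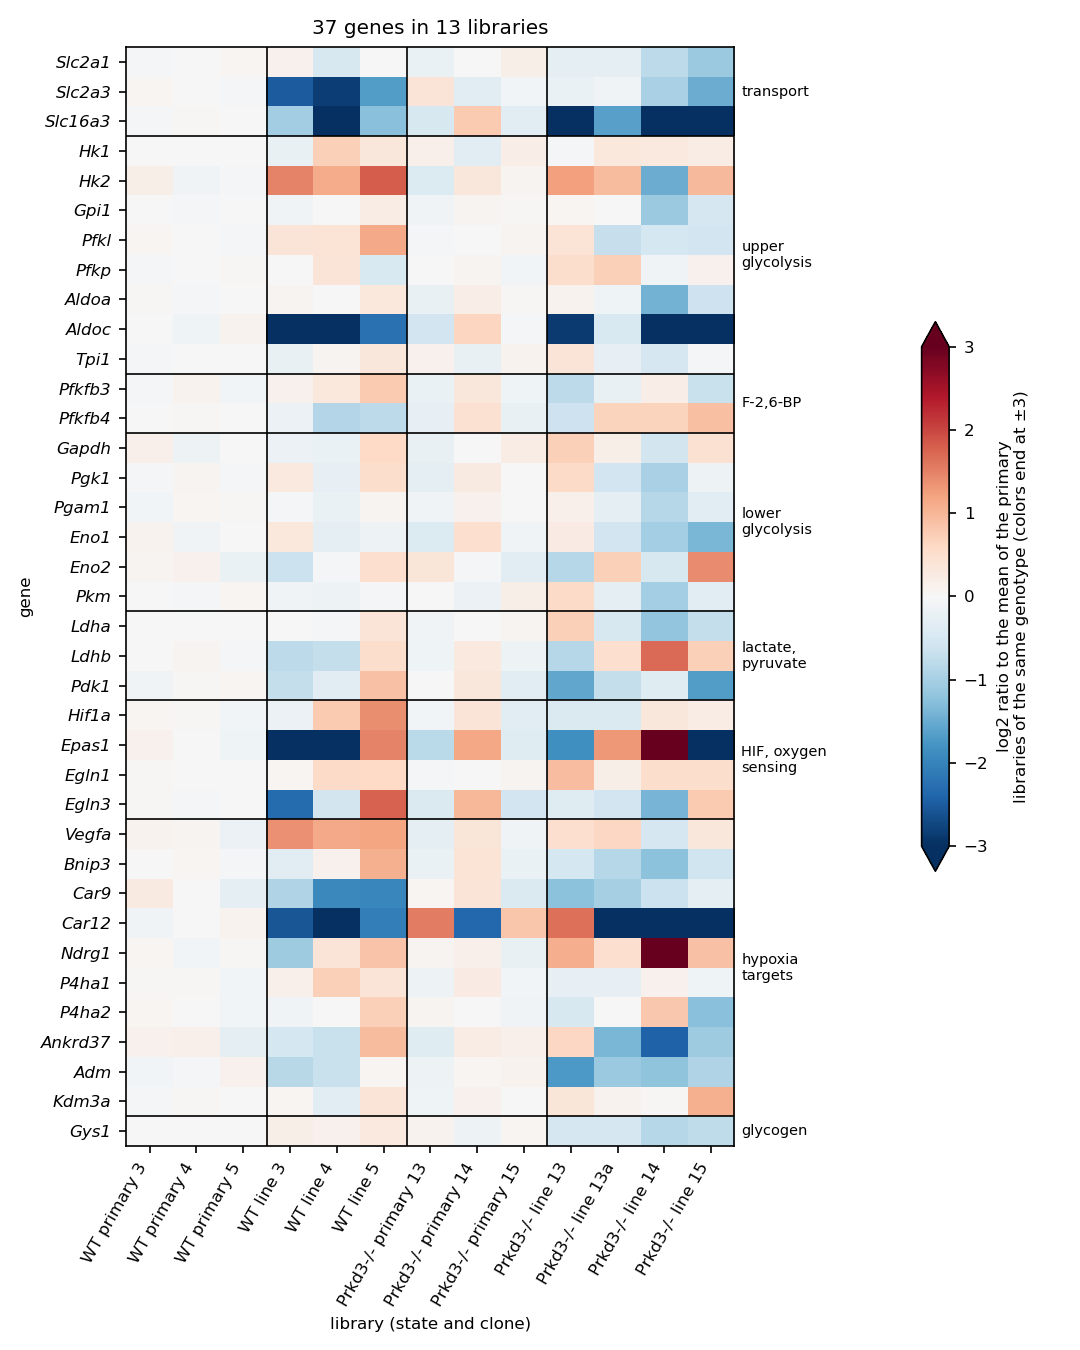
Log2 ratio of each of the 37 genes (rows, grouped by role) in each of the 13 libraries (columns) to the mean of the primary libraries of the same genotype, with a prior count of 1 and colors ending at -3 and 3. Red is higher and blue is lower. WT line 5 and Prkd3-/- line 14 stand out from the other lines, with medians of 0.38 and -0.63 over the 37 genes.

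Other genes of the same pathways were examined as 5 lists. Of 25 tested genes of glycolysis, lactate and pyruvate beside the 37, 0 passed the first thresholds in either genotype, and 2 were lower in WT lines at an adjusted p under 0.05, Hk3 (Log2FC -4.84, SE 0.60, adjusted p = 0.0115) and Slc2a4, the insulin-responsive transporter GLUT4 (Log2FC -3.40, SE 0.58, adjusted p = 0.0302). Among 40 other targets of HIF, 1 passed in WT, Ppfia4, which encodes a liprin scaffold protein and fell from 3.78 ± 0.246 to 0.459 ± 0.0609 CPM (Log2FC -3.04, SE 0.20, adjusted p = 0.00136), and 25 of the 40 had a positive Log2FC. Bhlhe40, a transcriptional repressor named here after its values were seen, was the 1 gene of this list higher at an adjusted p under 0.05 (Log2FC 1.44, SE 0.23, adjusted p = 0.0253). The median of these 40 was 0.19 in WT and -0.06 in Prkd3-/- MEFs, beside 0.04 and 0.07 over all genes. Of 15 HIF partners and oxygen-sensing regulators, 0 passed in either genotype, and the smallest p-values belonged to Hif3a (Log2FC -2.29, SE 0.55, adjusted p = 0.0836), whose lines lay near the level of 3 counts at 0.0483 to 0.0612 CPM, and the ubiquitin ligase Siah1a (Log2FC 0.48, SE 0.14, adjusted p = 0.129), both in WT. Of 14 tested glycogen genes 0 passed the first thresholds, and Pygl, the liver glycogen phosphorylase, was lower in WT lines at an adjusted p of 0.0352 (Log2FC -3.39, SE 0.61), while Pygb, the brain form, had a Log2FC of -0.43 (SE 0.12, adjusted p = 0.136). Of 7 pentose phosphate genes 0 passed them. Pgd, which encodes 6-phosphogluconate dehydrogenase, was lower in WT lines at an adjusted p of 0.0444 (Log2FC -0.44, SE 0.09), and Rpia had a Log2FC of 0.86 (SE 0.35, adjusted p = 0.730) in Prkd3-/- MEFs. In Prkd3-/- MEFs and in the interaction, 0 genes of the 5 lists passed an adjusted p under 0.05.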

How the data were processed

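Poly-A RNA of 13 MEF cultures was sequenced. Per the labels and file headers, the submitters' processing notes name FastQC 0.12.0, STAR 2.7.10a (mm10/GRCm38), SAMtools 1.18 and featureCounts of Subread 2.0.6, and the WT header gives read pairs counted on Ensembl release 102 genes without strand and for every gene they overlap. The table of the Prkd3-/- libraries carries no command line. The authors deposited raw counts per gene, and these were used as they stand. Each genotype was fitted with edgeR 4.0.16 in R 4.3.3 (quasi-likelihood test, TMM, its filter on low counts, robust estimation) and p-values were adjusted by Benjamini-Hochberg over all genes tested. SE is the |Log2FC| divided by the square root of F. Calls used the thresholds of the study, and the interaction of state and genotype was fitted over all 13 libraries. The alternatives changed the tool (DESeq2 1.42.0, or limma 3.58.1 with a weight per state), the scaling (size factors, or none beyond the library total), the filter (absent, or a minimum of 10 counts throughout), the robust option, the prior count (0.1), the samples (a joint fit, 13 and 13a added together, a library left out) or the clone as a block. The fits were tested on simulated data with the same dispersion for every gene and library. Such data lack the larger spread among lines than among WT primary libraries, so the fits were not tested under it. The genes, lists and tests were chosen with earlier results of these data known. Each of the 37 genes was named. Of the lists, genes passing the thresholds were named, or otherwise the 2 with the smallest p. The symbol Aldoa has a second gene ID with few counts, which was left out. Floors of 3 counts cover counting error only, and PCR copies were not removed by molecular identifiers. The SE and SD values also hold the spread between libraries.

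Primary and immortalized libraries are paired by the clone number in the labels. The correlation of the deviations of same-numbered libraries from their group means was -0.04, 0.04 and -0.05 for WT clones 3, 4 and 5, and 0.16, -0.30, 0.08 and 0.04 for Prkd3-/- lines 13, 13a, 14 and 15 with their clones. Between libraries of different numbers it ran from -0.05 to 0.09 in WT and from -0.31 to 0.35 in Prkd3-/- MEFs. Same-numbered libraries thus did not stand out as more alike. The WT primary libraries differed little, and their spread may be partly technical. For WT these correlations therefore cannot decide whether lines resemble their clones. Sequences come from RefSeq on GRCm38.p6, and for 29 of the 34 promoters of the 37 genes the bases after the start matched a GENCODE M21 transcript of the same strand.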

Additional observations from a re-analysis of the deposited data

Results flagged for a closer look

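Among the 4 Prkd3-/- lines, 4 of the 37 genes had a library far from the others by Dixon's test. Its nominal rate of about 1 in 20 holds for normally distributed values. The share flagged among all genes was not computed, so this count has no background to be set against. Pfkl was at 135 CPM in line 13 and at 63.8 to 70.7 CPM in the other lines. Car12 was at 53.7 CPM in line 13 and at 0.938 to 1.69 CPM in the others. Aldoc was at 1.21 CPM in line 13a and at 0.0313 to 0.210 CPM in the others. Ndrg1 was at 189 CPM in line 14 and at 31.6 to 46.9 CPM in the others.

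For Gys1 every WT line lay above the mean of its primary libraries and every Prkd3-/- line lay below it. The interaction Log2FC was -0.85 (SE 0.19), with an unadjusted p of 0.000684 and an adjusted p of 0.999983 in edgeR's quasi-likelihood test.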

How the results depend on the processing

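The number of WT genes of the 37 called, 1 as reported, was 6 with DESeq2, 3 without a filter, 4 at an adjusted p under 0.05 with no minimum fold, and 0 with the clone as a replicate block, with limma and in the joint fit of 13 libraries. It ranged from 0 to 4 with a library left out, and was 0 without WT primary clone 3, 4 or 5. The replicate block also took Hk2, Slc2a3 and Car12 past an adjusted p of 0.05 in WT, and it changed no other call. In Prkd3-/- MEFs DESeq2 called 2 and in the interaction 1, and all other alternatives run called 0 there. The causes were not tested. The difference in mean log2 CPM of the 37 genes between states was -0.26 in WT and -0.42 in Prkd3-/- MEFs, and with the median over genes in place of the mean it was 0.20 and -0.12, so in WT its sign depends on this choice. With library size alone the median Log2FC of all WT genes moved from 0.04 to -0.10 and that of the 37 genes from 0.10 to -0.01. The next counts are of pairs of a single-gene Log2FC and a tallied alternative, so 1 gene can enter several times. Of these pairs, 58 took the other sign, 884 kept their direction and side of the threshold, 13 newly passed and 7 no longer passed. All 7 were Vegfa in WT, the only gene called as reported. With library size alone, WT Log2FC values of the other sign were -0.086 for Gpi1, -0.12 for Pfkp, -0.039 for Tpi1, -0.12 for Eno2, -0.014 for Ldha, -0.0061 for Pdk1, -0.00015 for Ankrd37 and -0.060 for Kdm3a. With the replicate block, WT Log2FC values of the other sign were -0.013 for Pfkp, -0.069 for Eno2, -0.070 for Pdk1, -0.37 for Egln3 and -0.099 for Ankrd37. With limma, WT Log2FC values of the other sign were -0.016 for Pfkp, -0.076 for Eno2, -0.054 for Pdk1, -0.34 for Egln3 and -0.085 for Ankrd37. With limma, Prkd3-/- Log2FC values of the other sign were -0.34 for Epas1. With lines 13 and 13a summed, Prkd3-/- Log2FC values of the other sign were 0.029 for Hif1a and 0.0056 for P4ha2. With a library left out, the WT range was -0.21 to 0.067 for Slc2a1, -0.050 to 0.11 for Gpi1, -0.20 to 0.22 for Pfkp, -0.060 to 0.22 for Tpi1, -0.19 to 0.26 for Gapdh and -0.13 to 0.0094 for Pgam1. The same WT range was -0.22 to 0.094 for Eno1, -0.32 to 0.25 for Eno2, -0.039 to 0.20 for Ldha, -0.75 to 0.037 for Ldhb, -0.52 to 0.39 for Pdk1 and -3.48 to 0.55 for Epas1. The same WT range was -1.18 to 1.03 for Egln3, -0.081 to 0.68 for Bnip3, -0.16 to 0.64 for Ndrg1, -0.037 to 0.41 for P4ha2, -0.62 to 0.39 for Ankrd37 and -0.12 to 0.23 for Kdm3a. With a library left out, the Prkd3-/- range was -0.25 to 0.039 for Tpi1, -0.078 to 0.71 for Eno2, -0.51 to 0.027 for Pkm, -0.23 to 0.15 for Hif1a, -0.35 to 2.14 for Epas1 and -0.92 to 0.32 for Egln3. The same Prkd3-/- range was -0.23 to 0.0066 for P4ha1 and -0.50 to 0.21 for P4ha2. None of these genes passed a threshold in the fits as reported. With a library left out every group still held at least 2 libraries. Aldoc in Prkd3-/- line 14 lay under the level of 3 counts, which limits its fold.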
